A study of Ovis aries with 6 samples.

Results

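Homeobox genes outside the HOX clusters were followed in sheep cells of the adipose stromal vascular fraction, the mixed cell fraction of fat tissue that holds adipocyte precursors. Members were the rows of the expression table whose protein family label was Homeobox and whose symbol did not start with HOX, without regard to their level. This gave 87 of 26425 rows, 79 with a symbol and 8 without. The same label covered 28 HOX rows, which are not members.

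The 6 RNA sequencing libraries fell into 3 overexpressing MEOX2 (genotype label: overexpressing MEOX2) and 3 controls (genotype label: NC), all with the cell type label adipocyte. Column names carry the prefix pHBLV in both groups. Animal, age, culture day, the promoter driving MEOX2 and the meaning of NC are missing from the labels. Nothing there says that libraries of a group came from separate cultures or animals, so the p-values reflect the spread among 6 libraries, and that spread may be technical. Values are FPKM, reads scaled to gene length and library size, and a value after ± is the SD of 3 libraries. The question set by the design is which genes differ from control cells once MEOX2 is overexpressed.

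A homeobox encodes the homeodomain, a helical fold that binds DNA, mostly at short sites rich in A and T. HOX genes lie in clusters and lay down position along the body, while the homeobox genes elsewhere in the genome shape limbs, skull, muscle, eye and gut and keep mesenchymal cells in given states. They fall into classes by the sequence of the homeodomain and by added domains: MEOX lies near the HOX genes, MSX, DLX and EN belong to the NK-like class, PRRX and SHOX to the paired-like class, and LIM, SINE, TALE, POU, CUT and zinc finger proteins form classes of their own.

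Reads per library numbered 11772772 to 12230863. The 9 stromal progenitor markers summed to 20121 to 21510 FPKM in NC and 21025 to 22967 FPKM with MEOX2. COL1A1, COL3A1 and DCN led the sum, while CD34 averaged 1.01 FPKM and DLK1 0.0352 FPKM. Of these markers 8 were tested, and neither limma nor limma voom made a call. An unadjusted limma p under 0.05 was found for 3, against 13.4% of all genes tested. PDGFRA and LUM were higher with MEOX2, while CD34 was lower (0.642 against 1.37 FPKM). CD34 averaged above 1 FPKM in the NC group alone, so its p is not read as support. Of 9 adipocyte markers 8 were matched by symbol, among them FABP4 and ADIPOQ, and LEP had no reads. The 6 matched macrophage and leukocyte markers summed to 113.1 to 120.9 FPKM in NC and 120.6 to 131.4 FPKM with MEOX2, most of it CD14, while the leukocyte marker PTPRC averaged 0.0108 FPKM. Limma tested 3 of them and called none, while 1 had an unadjusted p under 0.05 and limma voom called 1. Of 7 endothelial markers 5 were matched, and they summed to at most 0.436 FPKM in any library. The skeletal muscle factors PAX7, MYF5, MYOD1 and MYOG had no reads. NC sample 3 stood apart on the second principal component (22.2% of variance).

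Most non-HOX homeobox genes had few or no reads at this depth. Of the 87 rows, 22 reached a mean of 1 FPKM over the 6 libraries and were tested, 25 had reads but a lower mean, and 40 had no read in any library. A count of 0 allows up to 3 reads in a library. Between 33 and 38 members had at least 1 read in each library. Genes with no reads included NANOG of pluripotent cells, SIX6 of the eye, PHOX2A of autonomic neurons and NKX2-5 of the heart. All 4 zinc finger rows and 3 of 4 SINE rows passed the filter, as did 5 of 31 NK-like, 4 of 26 paired-like, 1 of 8 LIM and 2 of 5 MEOX and other HOX-like rows, 3 of the 8 rows without a symbol and none of the single HNF row. Each of the 22 had a mean above 1 FPKM in both groups, so none passed through one group alone.

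**Figure D1:**
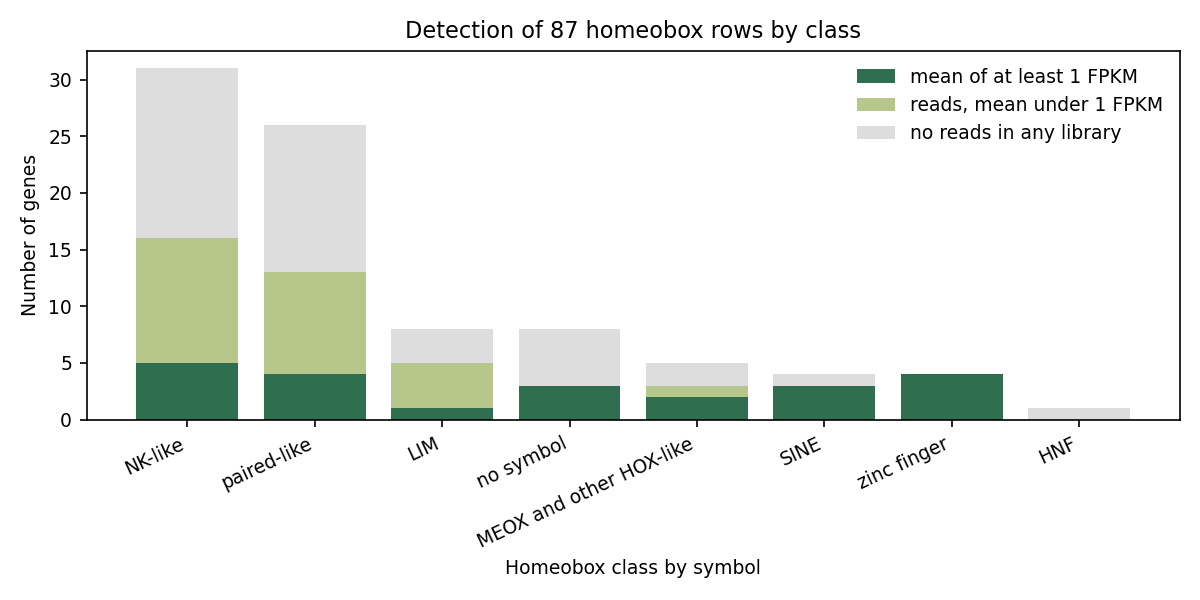
Number of homeobox rows (vertical axis) in each class by symbol (horizontal axis), split into rows with a mean of at least 1 FPKM, rows with reads but a lower mean, and rows with no reads in any of the 6 libraries. The NK-like class has 31 rows, of which 5 reach 1 FPKM, while all 4 zinc finger rows do.

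Differences between the groups were estimated on the log2(FPKM + 1) scale with limma over the 13121 genes that averaged 1 FPKM or more, adjusted by Benjamini-Hochberg at a threshold of 0.05. That scale understates changes of low genes. Of the 22 members tested, 2 were called: MEOX2 itself rose and SIX2 fell. Over all genes tested, 2.67% were called, 1.51% higher and 1.16% lower with MEOX2. Without the introduced gene, 1 of 21 members was called, a count too small to set the group apart from that background. The median log2 difference was -0.08 over the 22 members and -0.0027 over all genes tested, and 15 of the 22 differences were negative, against 50.7% of all genes.

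MEOX2, the mesodermal factor that was overexpressed (ENSOARG00000008280, minus strand of chromosome 4 from 24100798 to 24175729; for all coordinates the assembly is not given in the sources used here), measured 152.7, 107.7 and 138.4 FPKM in MEOX2 samples 1 to 3. In NC samples 1 to 3 it measured 10.8, 10.1 and 9.03 FPKM. The groups did not overlap, and every library carried at least 102 MEOX2 reads. The means were 132.9 ± 23.0 and 9.98 ± 0.910 FPKM (SD, n = 3 each), a 13.3-fold rise (log2 difference 3.60, SE 0.13, limma adjusted p = 1.15e-05; exact two-sided permutation test p = 0.1, the smallest that 3 against 3 samples allow). Reads counted per gene do not separate introduced from endogenous MEOX2.

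Control cells already held MEOX2 at a middling level among the members: it ranked 11 of the 22 tested members by mean FPKM in NC and 3 of 22 in the overexpressing cells. Measured within each library, MEOX2 was at 0.0591 to 0.0706 of the PRRX2 level in NC and at 0.710 to 0.978 of it after overexpression. The PRRX1 level was not reached in any library, with MEOX2 at 0.284 to 0.362 of it in the overexpressing samples.

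MEOX1, the paralog that acts with MEOX2 in somite patterning (ENSOARG00000005754, chromosome 11, 42968473 to 42986641), measured 3.90, 3.28 and 3.85 FPKM in MEOX2 samples 1 to 3 and 3.96, 5.42 and 4.65 FPKM in NC samples 1 to 3. All 3 overexpressing values lay below the NC values, though NC sample 1 was only just above them. The log2 difference was -0.27 (SE 0.13, 95% interval -0.58 to 0.03, limma adjusted p = 0.432) and was not called. MEOX2 exceeded MEOX1 by 1.86 to 2.74 times in the NC libraries and by 32.8 to 39.2 times in the overexpressing ones. GBX2, of the same class, had 1 read in all, and GBX1 and GSX2 had none.

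**Figure D2:**
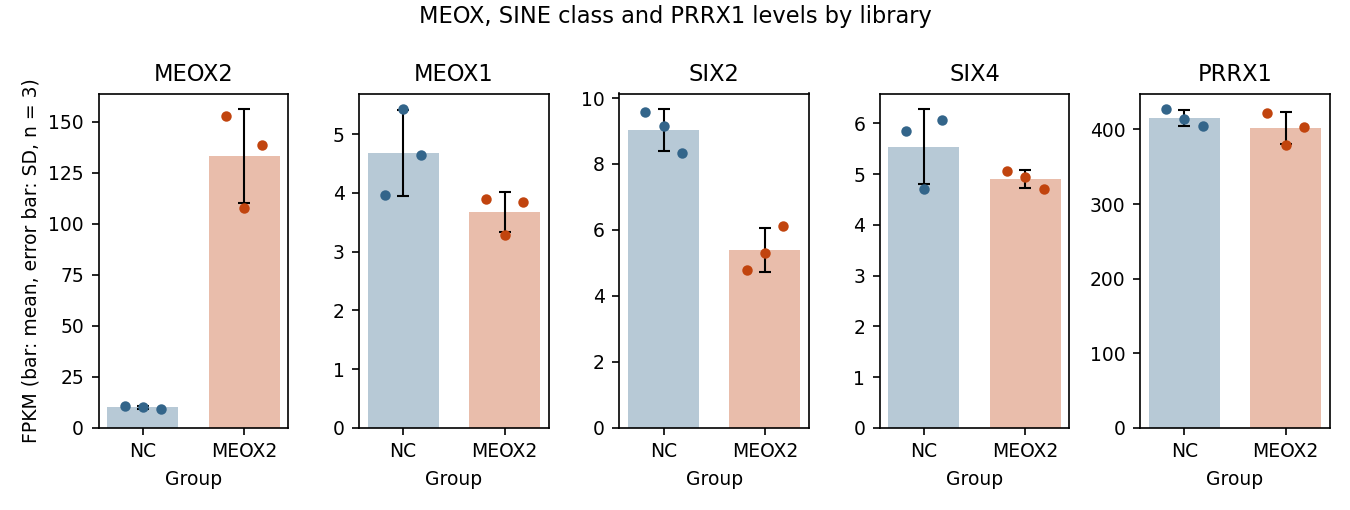
FPKM by library (points), group mean (bars) and SD (error bars, n = 3) of MEOX2, MEOX1, SIX2, SIX4 and PRRX1, each on its own axis from 0. MEOX2 is 13.3-fold higher in the overexpressing group, the SIX2 values of the groups are apart at 4.79 to 6.11 against 8.33 to 9.57 FPKM, and SIX4 and PRRX1 values overlap.

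SIX2 and SIX4 encode SINE class factors that work with EYA and DACH proteins in kidney, muscle and skull development. SIX2, known for keeping nephron progenitors undifferentiated (ENSOARG00000006034, chromosome 3, 79242090 to 79249093, plus strand), measured 4.79, 5.31 and 6.11 FPKM in MEOX2 samples 1 to 3. In NC samples 1 to 3 it measured 9.57, 9.17 and 8.33 FPKM. The groups were apart, with the highest overexpressing sample, number 3, below the lowest control, also number 3. SIX2 fell 1.67-fold with MEOX2, the NC mean being 9.02 ± 0.633 FPKM and the MEOX2 mean 5.40 ± 0.668 FPKM (SD, n = 3 each; log2 difference -0.65, SE 0.11, 95% interval -0.91 to -0.39, limma adjusted p = 0.0208; exact two-sided permutation test p = 0.1). Between 268 and 565 reads per library lay behind it. In bulk RNA, fewer cells of a type and less RNA per cell cannot be told apart.

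The size of the SIX2 difference held at -0.58 to -0.73 with each library left out in turn, but the call was lost without MEOX2 sample 1 (adjusted p = 0.0751), MEOX2 sample 2 (0.0676), NC sample 1 (0.102) or NC sample 2 (0.0705), and without the filter on low genes (0.0654). Without NC sample 3 it stayed past the threshold (0.0333). Adipocyte markers moved in the same direction: limma called 5 of 6 tested lower, against 1.16% of all genes. The sixth, LPL, had a log2 difference of 0.0046. The 8 matched adipocyte markers, led by FABP4, summed to 125.8 to 148.3 FPKM with MEOX2 and 297.8 to 352.9 FPKM in NC. Of 6 matched smooth muscle and pericyte markers, 4 were tested and 2 called higher, against 1.51% of all genes. MYH11, among those not called, had a log2 difference of 0.034. The 6, led by TAGLN, summed to 575.8 to 613.3 FPKM with MEOX2 against 478.0 to 490.5 FPKM in NC. The part of either marker set in the SIX2 result was not tested.

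SIX4, a SINE class factor of muscle development (ENSOARG00000021130, chromosome 7, 69797192 to 69805671), measured 5.07, 4.95 and 4.71 FPKM with MEOX2 and 5.85, 4.71 and 6.07 FPKM in NC, and NC sample 2 was level with MEOX2 sample 3, the lowest of its group (log2 difference -0.14, 95% interval -0.41 to 0.12). SIX6 had no reads, and neither did SIX3, 54.5 kb from SIX2. Whether SIX2 differed more than SIX4 was not tested.

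The paired-like class held the most abundant members. PRRX1, a factor of limb and stromal mesenchyme (ENSOARG00000012029, chromosome 12, 36339831 to 36434943), measured 421.9, 378.9 and 403.6 FPKM with MEOX2 and 426.8, 414.2 and 405.0 FPKM in NC. PRRX2, its paralog (ENSOARG00000008534, chromosome 3, 6759786 to 6762262), measured 165.3, 151.7 and 141.6 FPKM with MEOX2 and 153.6, 156.3 and 152.7 FPKM in NC. For both genes the values of the groups overlapped, and the NC libraries were the closer together. The 95% intervals of the log2 difference were -0.21 to 0.11 for PRRX1 and -0.19 to 0.16 for PRRX2.

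SHOX2, a regulator of proximal limb bone growth, averaged 13.2 ± 1.52 FPKM with MEOX2 and 13.3 ± 0.693 FPKM in NC (SD, n = 3 each), with a log2 interval of -0.24 to 0.22. HESX1, a repressor of forebrain and pituitary development, had the largest SD relative to its mean among the members above 5 FPKM (43.6% with MEOX2 and 28.7% in NC), with values from 3.15 to 8.07 FPKM with MEOX2 and from 4.68 to 8.27 FPKM in NC. Its reads numbered only 20 to 57 per library, and its interval of -0.96 to 0.34 includes differences larger than that of SIX2.

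**Figure D3:**
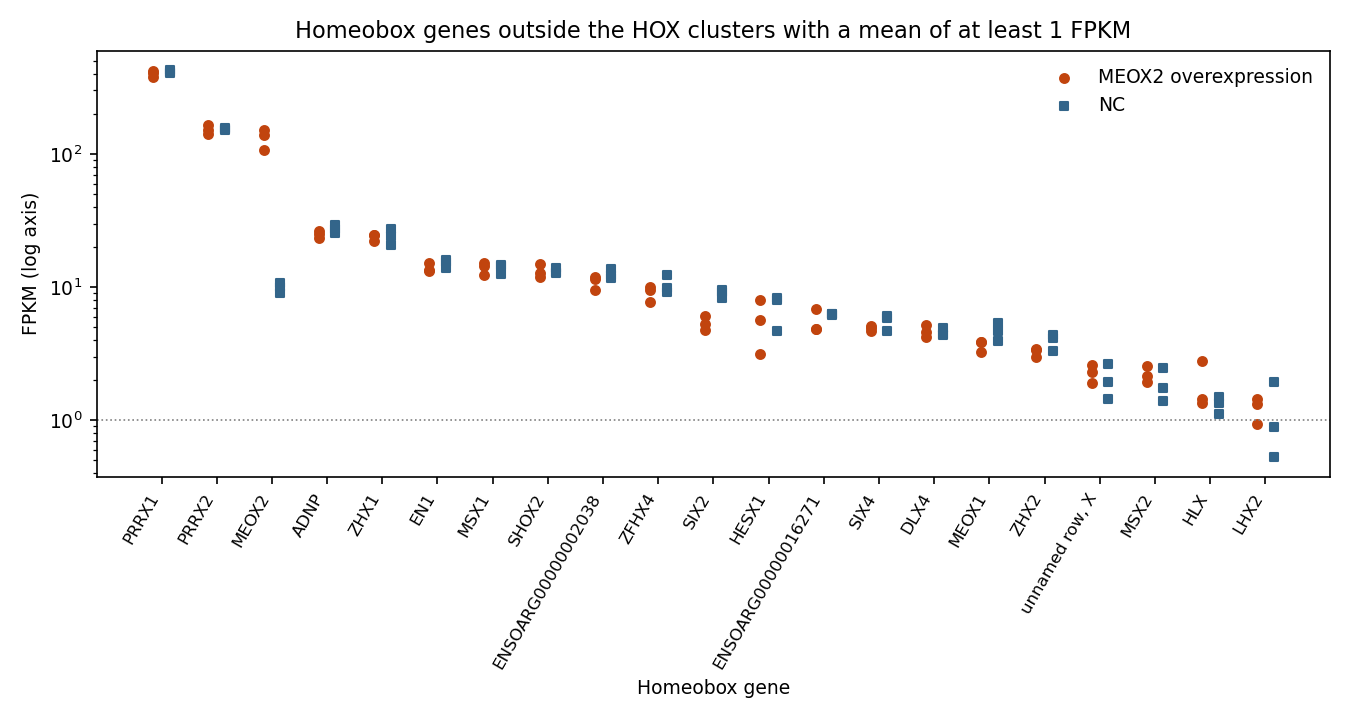
FPKM on a log axis (vertical) of 21 tested homeobox genes (horizontal, by mean level), with MEOX2 overexpressing libraries as circles and NC libraries as squares, and a dotted line at 1 FPKM. PRRX1 and PRRX2 lie highest in every library, and only MEOX2 moves by more than 10-fold between the groups.

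Among NK-like genes, EN1, known from dorsal and ventral patterning and from scar-forming dermal fibroblasts, measured 13.4, 13.3 and 15.1 FPKM with MEOX2 and 14.0, 15.3 and 16.1 FPKM in NC. MSX1, a target of BMP signalling, measured 12.4, 14.3 and 15.1 FPKM with MEOX2 and 14.3, 14.7 and 12.6 FPKM in NC. Values of the groups overlapped for both, and their log2 intervals were -0.33 to 0.10 and -0.23 to 0.24. MSX2, the paralog of MSX1, was lower than it in level at 2.21 ± 0.327 and 1.87 ± 0.545 FPKM. DLX4 was at 4.68 ± 0.521 and 4.57 ± 0.301 FPKM and HLX, a factor of visceral mesenchyme, at 1.86 ± 0.790 and 1.32 ± 0.190 FPKM (MEOX2 and NC, SD, n = 3 each). The wide spread of HLX came from MEOX2 sample 2, at 2.77 FPKM against 1.45 and 1.35 in the other two. For these 5 genes neither limma nor limma voom on recovered reads made a call, and each unadjusted limma p was above 0.05.

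The zinc finger class combines homeodomains with zinc fingers and was present throughout. ADNP, a chromatin-bound protein of broad expression, measured 25.04, 23.6 and 26.3 FPKM with MEOX2 and 27.2, 25.7 and 29.3 FPKM in NC. ZHX1, a repressor, was at 24.0 ± 1.48 and 24.2 ± 3.27 FPKM, and its paralog ZHX2 at 3.25 ± 0.238 and 3.95 ± 0.579 FPKM. ZFHX4, a very large factor of muscle and nerve, was at 9.06 ± 1.201 and 10.5 ± 1.60 FPKM. All 4 differences were negative, from -0.21 to -0.0058, and all 4 groups of values overlapped, so no difference from NC beyond the replicate spread was detected.

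**Figure D4:**
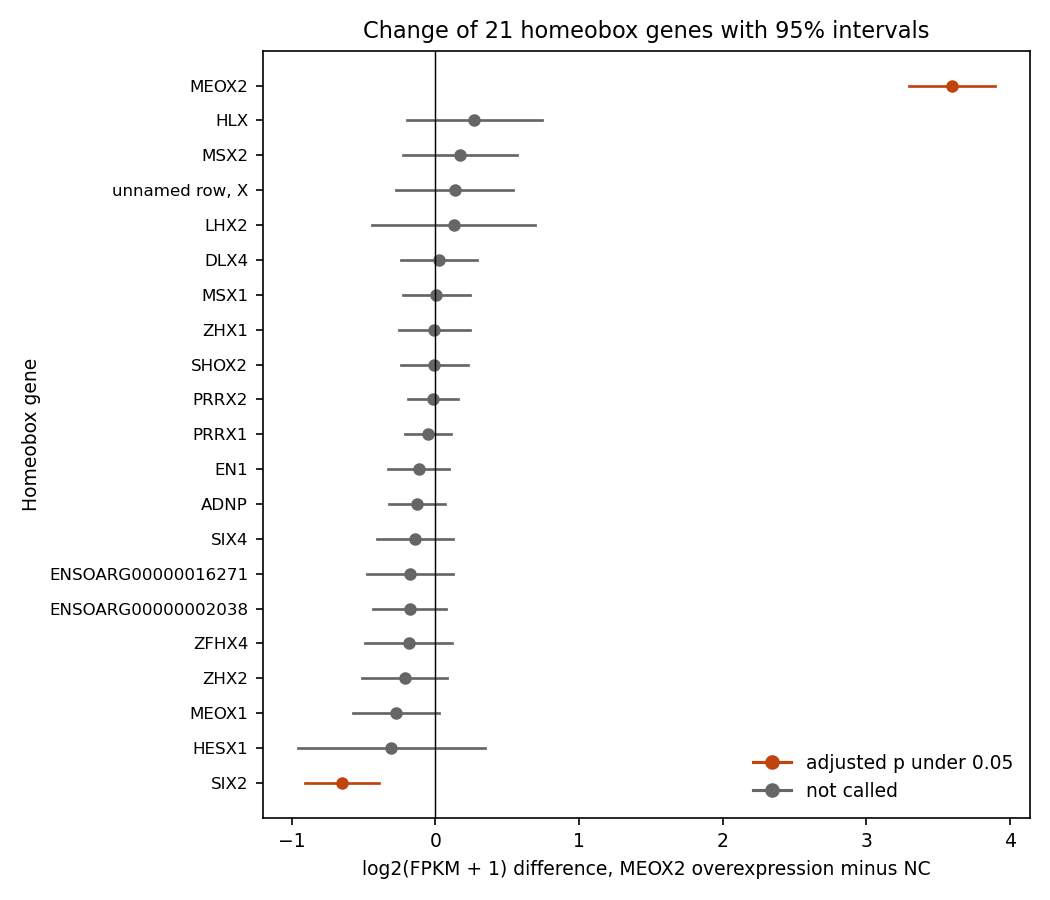
Difference on the log2(FPKM + 1) scale, MEOX2 overexpression minus NC (horizontal), with 95% intervals for 21 tested homeobox genes (vertical, in order of the difference). MEOX2 at 3.60 and SIX2 at -0.65 are the 2 genes with a limma adjusted p under 0.05.

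Precision differed between members. Of the 22, 13 had a 95% interval wholly between -0.5 and 0.5, and 6 had one between -0.3 and 0.3. The groups did not overlap for 4 of the 22 (1 with MEOX2 samples above, MEOX2 itself, and 3 with them below, SIX2 and MEOX1 among these), next to 18.9% of all genes tested, 9.6% above and 9.33% below. The count of 4 is close to the background, and the counts in each direction are too small to read. The least precise were HESX1 (SE 0.29) and LHX2 (SE 0.25), the tested member with the lowest mean. LHX2, a LIM factor of forebrain and hair follicle, ranged from 0.931 to 1.44 FPKM with MEOX2 and from 0.528 to 1.93 FPKM in NC.

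Of the rows without a symbol, 3 passed the filter. ENSOARG00000002038, annotated as a pseudogene on chromosome 13 (69430374 to 69433102), had means of 11.03 ± 1.33 FPKM (MEOX2) and 12.6 ± 1.06 FPKM (NC). ENSOARG00000016271 (chromosome 3, 132314501 to 132315663) lies 18.5 kb from HOXC5 and 22.4 kb from HOXC6, so it was kept by the symbol rule although it lies beside HOX cluster genes. It was at 5.50 ± 1.13 and 6.27 ± 0.0586 FPKM. A row with no Ensembl identifier on chromosome X (108906212 to 108907439), described in the table by likeness to a Rhox family protein, was at 2.27 ± 0.355 and 2.01 ± 0.597 FPKM, from 8 to 15 reads per library. Neither limma nor limma voom called any of the 3, and each unadjusted limma p was above 0.05.

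The filter at 1 FPKM fell between LHX2 (mean 1.17 FPKM) and HLX (1.59) just inside and BARX1 (0.801) and DLX3 (0.623) just outside. Of the 25 members with reads below it, 14 had 1 to 5 reads over all 6 libraries and 2 had over 50. Some were singled out after their values were seen. PITX3, a factor of lens and midbrain neurons, had 17, 18 and 11 reads with MEOX2 and 8, 4 and 11 in NC, and its FPKM values were only just apart (0.505 FPKM in MEOX2 sample 3 and 0.501 FPKM in NC sample 3). GSC, the organizer gene goosecoid, had 1, 1 and 5 reads in the overexpressing libraries and 0 in each NC library, too few for a fold. ISL1, a LIM factor of motor neurons and heart, had 2 reads in total with MEOX2 and 7 in NC. The fit at 1 FPKM left these rows out. Limma without that filter took in 47 members and called only MEOX2.

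The family label of the table does not cover all homeobox genes. By symbol, 76 further homeobox rows carried another label or none, most of the TALE, POU, CUT and zinc finger classes, and 29 passed the filter. This set was drawn up after the table was seen. None was called by limma. An unadjusted limma p under 0.05 was found for 3 of the 29, against 13.4% of all genes tested, and limma voom called 1, against 4.37% of all genes. TALE proteins, some of which bind DNA together with HOX proteins, had the most rows tested, with 12 of 17. MEIS2 averaged 12.3 ± 0.365 FPKM with MEOX2 and 10.9 ± 1.004 FPKM in NC, and PBX2 averaged 24.6 ± 2.46 and 26.5 ± 2.60 FPKM.

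MEIS3, another TALE gene (chromosome 14, 53443204 to 53454755), measured 9.39, 6.90 and 8.98 FPKM with MEOX2 and 5.94, 6.52 and 4.62 FPKM in NC, with the groups apart. Its log2 difference of 0.49 had an adjusted p of 0.156 by limma and 0.0308 by limma voom. PITX1, the hindlimb factor of the paired-like class, measured 1.72, 2.23 and 1.74 FPKM with MEOX2 and 0.817, 1.201 and 0.397 FPKM in NC, also apart. PITX1 rested on 3 to 17 reads per library, and it was not called (limma adjusted p = 0.136). It passed the filter through the overexpressing group alone, so its unadjusted p, among the 3 counted for this set, is not read as support. ZEB1 and ZEB2, repressors of epithelial genes, had log2 differences of 0.26 and -0.24, neither called. The values of the groups overlapped for ZEB1. For ZEB2 the MEOX2 values lay below those of NC, though only just, and its unadjusted limma p was under 0.05. Of the 29 tested genes of this set, the groups did not overlap for 4, next to 18.9% of all genes tested. MEIS3 and PITX1 were the 2 above, and ZEB2 was among the 2 below. SIX5 averaged 9.50 ± 0.592 FPKM with MEOX2 and 9.55 ± 1.03 FPKM in NC.

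**Figure D5:**
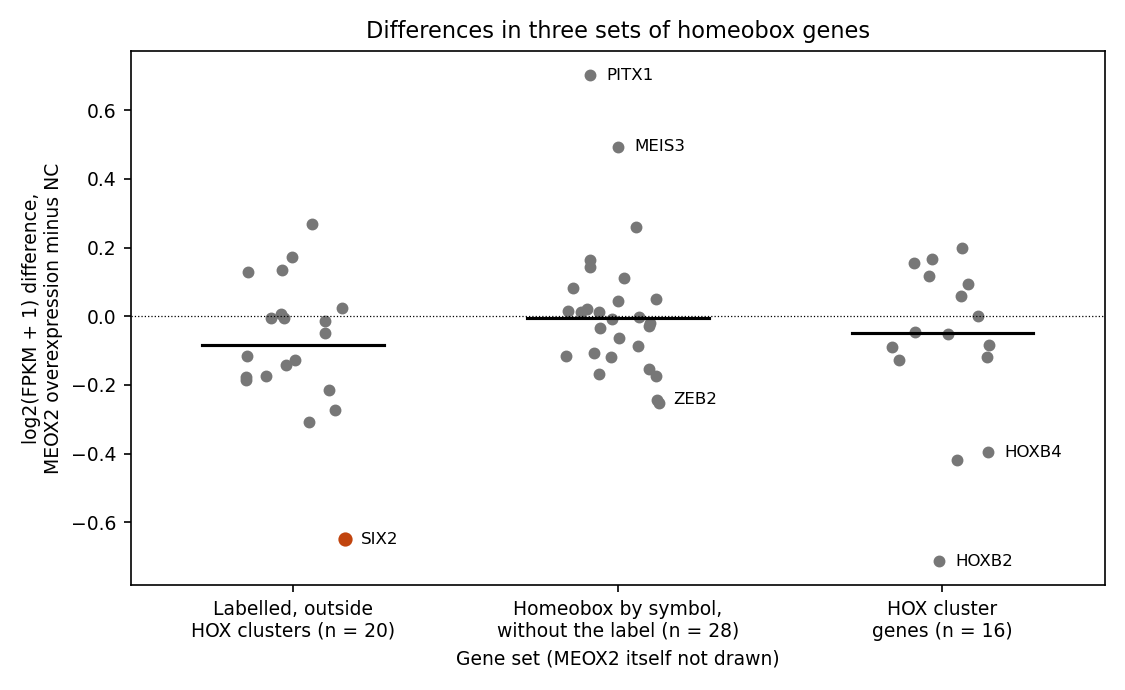
Difference on the log2(FPKM + 1) scale, MEOX2 overexpression minus NC (vertical), for 20 labelled homeobox genes outside the HOX clusters (MEOX2 not drawn), 28 homeobox genes found by symbol without the label, and 16 HOX genes, with medians of the genes drawn as bars and names for genes with an unadjusted p under 0.05. SIX2 is the only gene drawn that has a limma adjusted p under 0.05.

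Of the HOX rows, 16 of 28 were tested. Limma and limma voom made no call among them, and their median log2 difference was -0.05. Of the 16, 2 had an unadjusted limma p under 0.05, near the 13.4% of all genes. HOXB2, among these 2, averaged 0.981 FPKM with MEOX2 and 2.27 FPKM in NC. It passed the filter through the NC group alone, so its p is not read as support. The medians are given side by side, and no difference between the sets was tested.

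Protein partners of homeobox factors and other mesodermal factors were taken from lists. Among 28 matched partners, 20 were tested. Limma and limma voom made no call among these, and 2 had an unadjusted limma p under 0.05, which is not above the 13.4% of all genes tested. EYA1, a coactivator of SINE class factors, measured 1.82 ± 0.315 FPKM with MEOX2 and 2.75 ± 0.5001 FPKM in NC (adjusted p = 0.284). LMO1, which binds the LDB cofactors of LIM proteins, was at 1.65 ± 0.243 and 0.640 ± 0.268 FPKM from 2 to 10 reads per library. It passed the filter through the overexpressing group alone, so its unadjusted p, among the 2 counted for the partners, is not read as support. SMAD3, the TGF-beta effector bound by TGIF proteins, was at 11.7 ± 1.43 and 13.8 ± 1.36 FPKM. The median log2 difference of the 20 was -0.04.

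Of 29 matched mesodermal factors outside the homeobox family, 15 were tested. Limma made no call among these. Limma voom made 1, against 4.37% of all genes, and 3 of the 15 had an unadjusted limma p under 0.05, against 13.4%. TBX15, a T-box factor of skeleton and fat depots, measured 22.04 ± 3.497 FPKM with MEOX2 and 28.8 ± 0.733 FPKM in NC (log2 difference -0.38; adjusted p = 0.143 by limma and 0.0323 by limma voom). OSR1, a zinc finger factor of connective tissue progenitors, was at 35.2 ± 5.02 and 45.1 ± 2.85 FPKM (adjusted p = 0.175). HAND2, a factor of limb and heart, was at 5.70 ± 0.525 and 4.06 ± 0.0862 FPKM (adjusted p = 0.1099). The values of the groups did not overlap for these 3 genes, which were named for their small p and were the only such genes of the 15, next to 18.9% of all genes. The median log2 difference of the 15 was -0.13.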

How the data were processed

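The authors deposited 1 table of FPKM values with a column per sample, gene lengths, coordinates and a protein family label. The tools named, without roles, per the submitters' processing notes are HISAT2 2.0.5 and fastp, DESeq2 1.20.0, CASAVA 1.8 and featureCounts 1.5.0-p3. Build, annotation and strandedness: not given in the sources used here. Reads shared with overlapping, antisense or very similar genes therefore cannot be assigned with certainty.

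FPKM times gene length gave whole reads (within 0.01 of a read) for 100% of values above 0. Log2(FPKM + 1) of genes averaging 1 FPKM or more was fitted with limma 3.58.1 in R 4.3.3 (intensity trend, no covariates, all 6 samples). The fit was tested on simulated data. Classes follow symbols. The members and lists were chosen with earlier results of these data known. Named were MEOX2, MEOX1, called members, those with the smallest p or highest level, those at the filter, and the 3 partners and 3 mesodermal factors with the smallest p. Alternatives changed pseudocount, filter, scaling, variance model, test, block and libraries. Python 3.11.15, pandas 2.3.3 and matplotlib 3.10.9 served the rest. Some genes that this rule names are not reported here.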

Additional observations from a re-analysis of the deposited data

How the results depend on the processing

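MEOX2 stayed past the threshold in all 14 alternatives, and no uncalled member was called in any of them. The sign of 7 of the 22 tested members, each uncalled, changed in at least 1 alternative, and 15 kept their sign. Over all genes, 350 were called, 194 without a filter on low genes, 574 with limma voom on recovered reads, and 117 to 276 with single libraries left out. Of members, 2 were called, 1 without a filter, and 1 to 2 with single libraries left out. Limma voom called 1 homeobox gene without the label (MEIS3) and 1 mesodermal factor (TBX15), where limma called none. With the replicate number as a block, 242 genes and 1 member were called, and SIX2 had an adjusted p of 0.0544. Same-numbered samples did not deviate together (r = -0.0747, 0.0204 and -0.00417), and of the 6 samples only NC sample 2 correlated best with its own number, so the numbers were not taken as a pairing. Members with under about 60 reads per library, such as HESX1 and LHX2, could hide sizeable differences.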
